A study of Mus musculus with 28 samples.

Results

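Raising vorinostat from 2 µM to 10 µM in activated mouse CD4 T cells was examined on 4 of the 28 arrays of the study, namely the 2 arrays labelled CD4 with vorinostat at 10 µM and the 2 arrays labelled CD4 with vorinostat at 2 µM. The 10 µM and 2 µM arrays that carry the same replicate number were treated as pairs, and all genes were compared. The cells were CD4 T cells of mouse spleen, isolated by negative selection, in which unwanted cells are bound and removed. In both groups they were activated for 2 days with 3 µg/ml of plate-bound antibody to CD3 and 5 µg/ml of soluble antibody to CD28, and then kept for 1 day with the drug. The study also holds CD4 arrays with vorinostat at 0.5 µM, with romidepsin at 2, 10 and 30 nM, and with no drug (called stimulated control here, for which the labels name no vehicle), and a matching set of CD8 T cells, with 2 arrays in each of 14 groups. The labels used here give no strain, age or number of mice, and do not say that replicates came from separate cultures. A p-value measures only the spread left over all 28 arrays once the group means and the replicate difference are fitted.

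Vorinostat is a hydroxamate that blocks zinc-dependent histone deacetylases, the enzymes that take acetyl groups off histone tails and many other proteins. When they are blocked, acetylation spreads over chromatin, and some silent genes become active while many highly transcribed genes that depend on enhancers lose transcription. The activation programme of a T cell includes receptors, signalling proteins and cytokines turned on through the T cell receptor and CD28. Whether its genes are of the second kind was not tested here.

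Levels below are log2 values, so 1 unit is a 2-fold difference, and for each dose the value of replicate 1 is given before that of replicate 2. Values of different genes come from different probe sets, and their levels are not compared with each other. Differences are 10 µM minus 2 µM, with the standard error of the fit after ± and n = 2 arrays per group. A gene was called when its adjusted p was under 0.05 in limma with the replicate number as a block. A level over 4.27 was taken as detected.

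The replicate sets differed from each other, with the RNA of male cells in replicate 1 and of female cells in replicate 2. They thus came from different mice, and the replicate block also carries the difference of sex. Every replicate 1 array held the Y-linked Eif2s3y at 11.36 to 12.02 with Xist, the RNA that silences an X chromosome in females, at 2.27, and every replicate 2 array held Xist at 11.69 to 12.72 with Eif2s3y at 2.25. In the 4 arrays compared, 8580 and 9138 genes were detected at 10 µM and 8520 and 9176 at 2 µM. The difference between the 3' and 5' probe sets of beta-actin, which grows as RNA shortens, was 1.62 and 1.09 at 10 µM and 1.19 and 0.85 at 2 µM, so it was higher at 10 µM in both pairs. For Gapdh it was 0.34 and 0.08 at 10 µM and 0.20 and 0.10 at 2 µM. The part of the actin difference in the results was not tested beyond a fit that holds it as a covariate, called the actin covariate below.

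Of 9871 genes tested, 4313 were called (43.7%), of which 2552 were higher at 10 µM (25.9%) and 1761 lower (17.8%). The median change over all tested genes was 0.05. Among called genes, 4308 moved the same way in both pairs, which calling on the mean of the pairs makes nearly certain. The falls were the deeper ones. More than 4-fold changes numbered 71 rises and 133 falls, and more than 8-fold changes 9 rises and 26 falls. Of the called falls 82 ended under detection at 10 µM, and of the called rises 146 started from under detection at 2 µM. Without the replicate block 535 genes were called (5.42%), and all 535 were among the 4313. With the actin difference as a covariate 1569 were called. Changes were wider in replicate 1 (SD over genes 0.829) than in replicate 2 (SD 0.713).

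**Figure D1:**
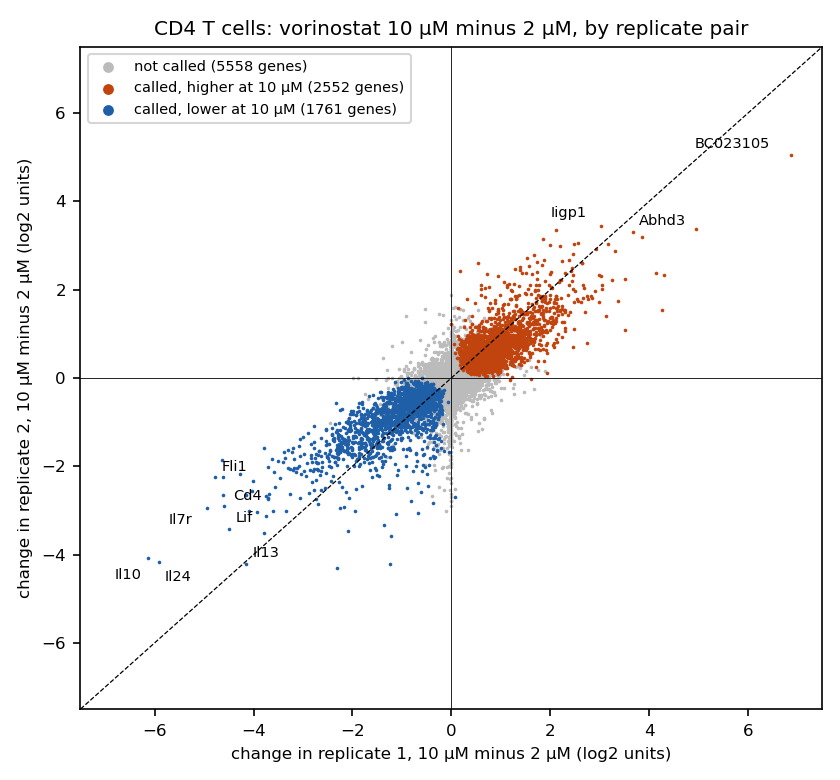
Change of each of 9871 tested genes from vorinostat 10 µM minus 2 µM in CD4 cells, in log2 units, with replicate 1 on the x axis and replicate 2 on the y axis. Orange points are the 2552 genes called higher and blue points the 1761 called lower, the dashed line marks equal change, and Il10, Il24 and Il13 lie farthest down by their mean change while BC023105 lies farthest up.

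Most of the tested cytokine genes fell. Of 20 effector cytokines and chemokines tested, 14 were called lower at 10 µM (70%) and 1 higher (5%), beside 17.8% and 25.9% of all genes. Their median change was −1.82. Without the replicate block 6 of them were called lower, and with the actin covariate 9. Il10, which encodes the anti-inflammatory interleukin 10, stood at 2.35 and 4.01 at 10 µM, both under detection, against 8.49 and 8.09 at 2 µM. It was thus at least 16.3-fold lower at 10 µM (adjusted p = 8.9e-05), and its levels with 0.5 µM (8.82 and 8.12) and in the stimulated control (8.68 and 8.18) were close to those at 2 µM. Il24, an interleukin of the same family, stood at 2.76 and 5.05 at 10 µM against 8.68 and 9.22 at 2 µM, a difference of −5.04 ± 0.58 (adjusted p = 4.73e-05). Both 10 µM arrays lay below both 2 µM arrays for each of these genes. Here and below, genes described as not overlapping were named for the size of their change, which makes this likely. The share of all genes without overlap is not given here.

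Il13, a type 2 cytokine, was under detection at 10 µM (2.33 and 4.16) and stood at 6.47 and 8.36 at 2 µM, so it was at least 8.88-fold lower (adjusted p = 0.000468). Lif, a cytokine of the interleukin 6 family, fell 15.5-fold and stayed detected, with 7.21 and 7.66 at 10 µM against 11.71 and 11.07 at 2 µM (−3.95 ± 0.41, adjusted p = 2.78e-05). Its levels ran over the doses from 11.91 and 11.30 in the stimulated control to 11.88 and 11.22 at 0.5 µM before those values at 2 and 10 µM, so almost all of its fall lay in the last step. The 4 further cytokine genes given next, named after their values were seen, encode T cell growth factors and signature cytokines. These were Il21 (−3.64 ± 0.55), Il4 (−3.43 ± 0.50), Il2 (−1.98 ± 0.52) and Ifng (−1.81 ± 0.39), all called lower. Tnf, which encodes tumour necrosis factor, was not called and stood at 9.10 and 8.61 at 10 µM against 8.92 and 8.66 at 2 µM. Ccl5, a chemokine for T cells and monocytes, went the other way, with 10.09 and 8.43 at 10 µM against 8.25 and 6.68 at 2 µM (1.80 ± 0.49, adjusted p = 0.00894). It rose in each pair, but the spread between replicates was nearly as wide as the difference between doses, and it was not called without the block (adjusted p = 0.28).

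Most of the tested genes of T cell receptor signalling fell too. Of 22 tested members, 17 were called lower (77.3%) and 1 higher (4.55%), beside 17.8% and 25.9% of all genes. Their median was −1.38, with 3 called lower without the block and 7 with the actin covariate. Themis, a protein of T cell development that tunes receptor signals, stood at 3.58 and 6.62 at 10 µM against 8.21 and 8.47 at 2 µM (−3.24 ± 0.69, adjusted p = 0.0019). Cd5, a receptor that dampens the signal, stood at 7.82 and 9.30 at 10 µM against 11.41 and 11.43 at 2 µM (−2.86 ± 0.69). The 2 arrays at 10 µM lay below the 2 arrays at 2 µM for both genes, and replicate 1 fell farther. Cd247, the zeta chain of the receptor complex, stood at 8.07 and 9.81 at 10 µM against 11.21 and 11.94 at 2 µM (−2.63 ± 0.52), and Lcp2, the adaptor SLP-76, at 7.43 and 9.08 against 10.47 and 11.26 (−2.61 ± 0.62). Plcg1, the phospholipase that the complex activates, was not called (−0.16 ± 0.11), nor was the kinase Fyn (0.08 ± 0.13). Bcl10, which carries the signal on to NF-kappaB, was called higher (0.43 ± 0.13).

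**Figure D2:**
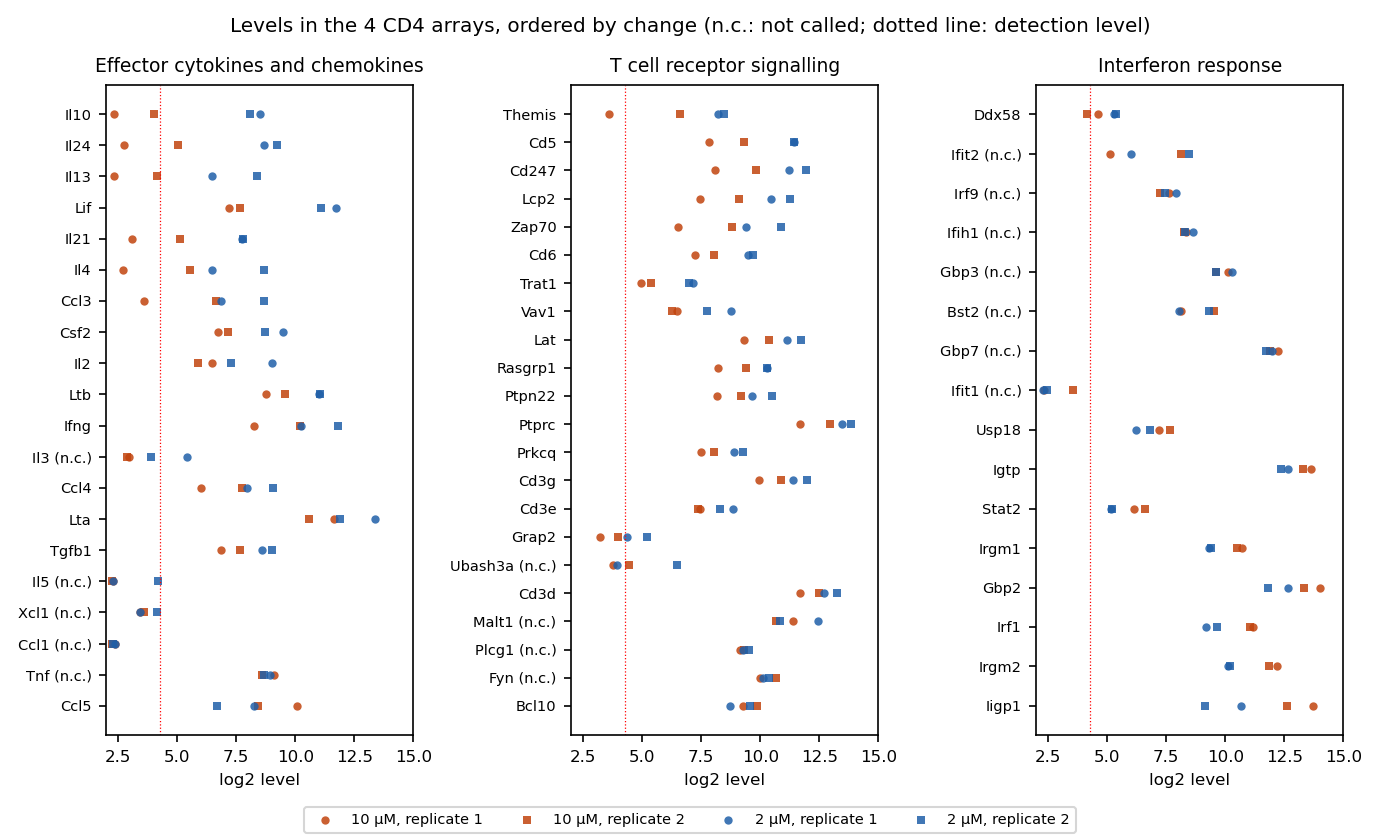
Log2 levels of all tested members of 3 gene lists in the 4 CD4 arrays, with vorinostat at 10 µM in orange and 2 µM in blue, circles for replicate 1 and squares for replicate 2. Members are ordered by change, n.c. marks members not called, and the dotted line is the detection level of 4.27. Most cytokine and T cell receptor members have their orange points left of their blue ones, and Irf1, Irgm2 and Iigp1 have them to the right.

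Costimulatory receptors were also lower. All 9 tested members of the TNF receptor family of costimulators and their partners were called lower, beside 17.8% of all genes. Their median was −1.94, with 2 called lower without the block and 3 with the actin covariate. Traf1, an adaptor under these receptors, stood at 5.00 and 6.41 at 10 µM against 8.94 and 9.43 at 2 µM, an 11.2-fold fall (adjusted p = 0.000492). Tnfrsf9, which encodes the activation receptor 4-1BB, stood at 7.61 and 8.42 at 10 µM against 10.27 and 10.61 at 2 µM (−2.42 ± 0.29, adjusted p = 5.81e-05). Cd27 went under detection at 10 µM (2.85 and 3.58, against 5.11 and 6.52 at 2 µM) and was at least 2.92-fold lower. It had stood at 7.66 and 8.23 in the stimulated control, so unlike Lif it was already low at 2 µM.

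Among 12 tested genes of the CD28 family and of inhibitory checkpoint receptors, 7 were called lower (58.3%, beside 17.8% of all genes) and 0 higher. Their median was −1.11, with 4 called lower without the block and 1 with the actin covariate. For Btla, an inhibitory receptor, the levels were 5.15 and 6.58 at 10 µM and 9.16 and 8.91 at 2 µM (−3.17 ± 0.56). Those of Pdcd1, which encodes PD-1, were 4.91 and 5.78 at 10 µM and 7.45 and 7.94 at 2 µM (−2.35 ± 0.49). Ctla4, the inhibitory counterpart of CD28, was not called, with 13.03 and 12.83 at 10 µM against 13.61 and 12.92 at 2 µM.

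Cytokine receptors and their JAK-STAT pathway gave 19 members lower (79.2%) and 1 higher (4.17%) of 24 tested, beside 17.8% and 25.9% of all genes. Their median was −1.25, with 5 called lower without the block and 7 with the actin covariate. Il7r, the receptor for the survival factor interleukin 7, stood at 5.35 and 8.38 at 10 µM against 10.30 and 11.31 at 2 µM (−3.94 ± 0.90, adjusted p = 0.00285). The difference rested more on replicate 1 and was not called without the block (adjusted p = 0.121). Il21r had 4.65 and 5.78 at 10 µM against 7.91 and 8.40 at 2 µM (−2.94 ± 0.36), and Il2rb, a chain of the interleukin 2 receptor, had 8.65 and 9.08 against 11.00 and 10.98 (−2.12 ± 0.27). For both of these receptors the doses did not overlap, and the Il2rb arrays at each dose lay close together. Jak1, a kinase that most of these receptors use, was the 1 gene called higher (0.34 ± 0.13), and Stat3 was not called (0.06 ± 0.18).

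Transcription factors that set T cell lineage and fate gave 15 called lower (65.2%) and 1 higher (4.35%) of 23, beside 17.8% and 25.9% of all genes. Their median was −0.99, with 3 called lower without the block and 8 with the actin covariate. Ikzf1, which encodes Ikaros, stood at 7.72 and 8.46 at 10 µM against 10.67 and 10.67 at 2 µM (−2.58 ± 0.36). Tox, a factor of T cell development and exhaustion, stood at 4.0 and 4.75 at 10 µM against 7.21 and 6.33 at 2 µM (−2.39 ± 0.34), and its levels in the stimulated control, 5.88 and 6.12, were below those at 2 µM, so the step brought it under the control levels. Batf, an AP-1 partner of IRF4, stood at 8.48 and 9.69 at 10 µM against 11.16 and 11.34 at 2 µM (−2.17 ± 0.36). Irf4 was not called (12.58 and 12.72 at 10 µM, 12.80 and 12.76 at 2 µM). Irf8, a factor of the interferon regulatory family, was the 1 member that rose, with 14.16 and 13.49 at 10 µM against 12.30 and 11.64 at 2 µM (1.86 ± 0.23, adjusted p = 7.84e-05).

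Of 17 immediate activation factors, the first-wave genes of the AP-1, EGR, NFAT and NR4A families, 5 were called lower (29.4%) and 1 higher (5.88%), beside 17.8% and 25.9% of all genes (median −0.37, 0 of either without the block, 2 lower with the actin covariate). Nr4a3 (−1.38 ± 0.29) and Nfatc2 (−1.24 ± 0.19) were called lower, while Jun, Egr1, Egr2 and Nfatc1 were not called. Fos was called higher, with 12.06 and 12.02 at 10 µM against 10.53 and 11.30 at 2 µM (1.12 ± 0.38), but its estimate was −0.17 with the actin covariate. Of 13 NF-kappaB genes 3 were lower (23.1%) and 1 higher (7.69%), beside 17.8% and 25.9% of all genes (1 lower without the block, 2 with the actin covariate). Bcl3, a nuclear partner of that factor, fell to 7.64 and 7.96 at 10 µM, against 10.38 and 9.87 at 2 µM (−2.33 ± 0.20).

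Outside the lists, the deepest falls among genes detected at both doses included Fli1, an ETS transcription factor of blood cells. Fli1 stood at 5.38 and 7.75 at 10 µM against 10.15 and 10.00 at 2 µM (−3.51 ± 0.60, adjusted p = 0.00046), and at 10.16 and 9.73 in the stimulated control. Itpkb, a kinase for inositol trisphosphate, stood at 4.07 and 6.86 at 10 µM against 8.67 and 9.10 at 2 µM. Sla, an adaptor that promotes turnover of the T cell receptor, stood at 6.12 and 7.71 at 10 µM against 10.15 and 10.27 at 2 µM. These genes were as high at 2 µM as without drug or close to it, whereas Serpinf1, a secreted serpin, went down over the whole range. Its levels were 11.45 and 11.04 in the stimulated control, 10.62 and 10.42 at 0.5 µM, 8.08 and 8.60 at 2 µM and 3.82 and 6.42 at 10 µM.

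All 8 tested GIMAP genes, which encode GTPases that support lymphocyte survival, were called lower, beside 17.8% of all genes. Their median was −1.61, with 1 called lower without the block and 3 with the actin covariate. Gimap3 changed most, with 4.52 and 5.93 at 10 µM against 8.31 and 9.45 at 2 µM (−3.65 ± 0.47, adjusted p = 8.34e-05). Of 9 survival genes, 7 were lower (77.8%, beside 17.8% of all genes) and 0 higher. Their median was −0.87, with 2 called lower without the block and 6 with the actin covariate. Cflar, which encodes the caspase 8 inhibitor c-FLIP, had 6.54 and 7.19 at 10 µM against 9.18 and 9.29 at 2 µM (−2.37 ± 0.26, adjusted p = 3.8e-05). Bcl2l1, which encodes Bcl-xL, had 7.60 and 7.57 at 10 µM against 9.13 and 9.31 at 2 µM (−1.63 ± 0.19). Cflar had stood at 9.74 and 9.65 in the stimulated control and Bcl2l1 at 8.83 and 9.26, so both were near their control levels at 2 µM.

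Of 9 pro-apoptotic members of the BCL2 family 3 were higher (33.3%) and 2 lower (22.2%), near the 25.9% and 17.8% of all genes, with 0 of either called without the block and 1 each way with the actin covariate. Bcl2l11, which encodes BIM, rose to 9.17 and 10.06 at 10 µM, against 8.31 and 8.71 at 2 µM (1.11 ± 0.19, adjusted p = 0.000481), and Bmf was higher as well (0.91 ± 0.31). Bak1, a pore-forming member, was lower (−1.09 ± 0.19). Of 11 death receptors and caspases 2 were higher (18.2%) and 3 lower (27.3%), beside those same shares of all genes. Without the block 0 of either were called, and with the actin covariate 1 each way. Casp8, the caspase of death receptors, was called lower (−1.81 ± 0.28) and Casp9, the caspase of the mitochondrial route, was called higher (0.88 ± 0.20).

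Among cytotoxic granule genes, 9 of 11 were lower (81.8%) and 1 higher (9.09%), beside 17.8% and 25.9% of all genes (median −1.12). However, none of the 9 was called without the block, and 1 was called with the actin covariate. Gzmb, which encodes granzyme B, stood at 11.01 and 12.14 at 10 µM against 13.29 and 13.67 at 2 µM (−1.90 ± 0.39), and Fasl, the death ligand, at 4.77 and 8.14 against 8.06 and 10.19 (−2.67 ± 0.58). For Fasl the 10 µM value of replicate 2 lay above the 2 µM value of replicate 1, so the groups overlap and the fall shows only within pairs. The 1 member called higher was Lamp1, a membrane protein of granules and lysosomes (0.65 ± 0.14). Of 18 homing and adhesion genes 7 were lower (38.9%, beside 17.8% of all genes) and 1 higher, with 0 of either called without the block and 5 lower with the actin covariate. Cxcr6, a chemokine receptor, stood at 2.38 and 5.78 at 10 µM against 6.48 and 8.79 at 2 µM (−3.55 ± 0.73, adjusted p = 0.327 without the block).

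**Figure D3:**
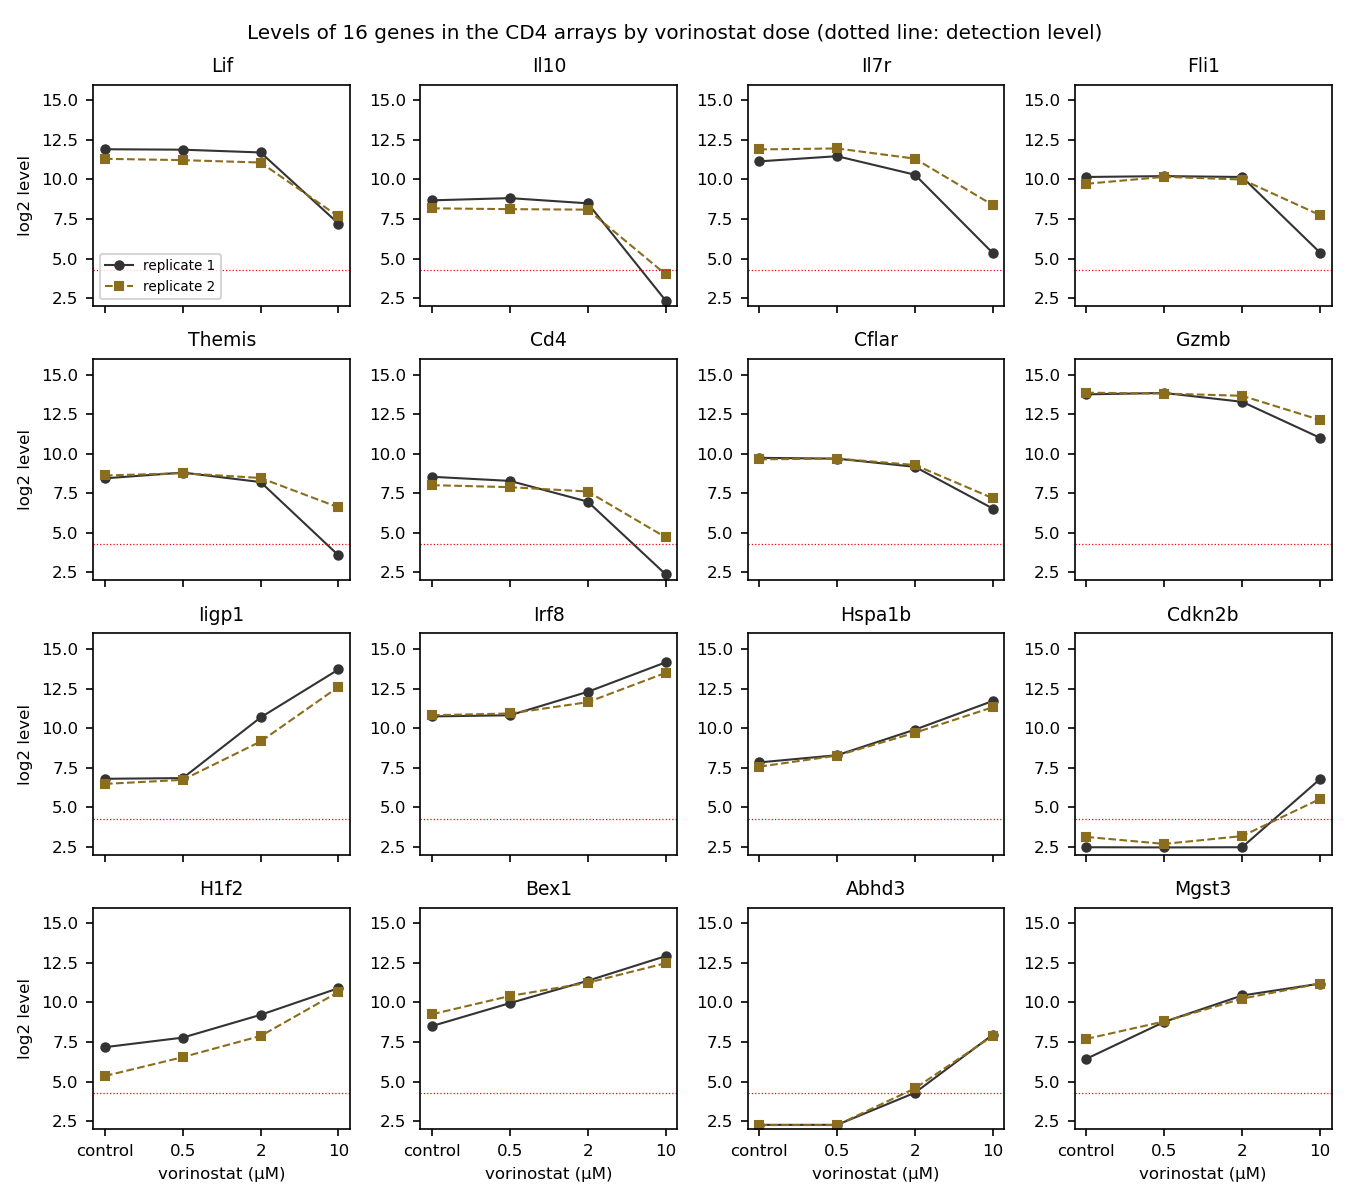
Log2 levels of 16 genes in CD4 cells over the vorinostat doses, with the stimulated control first and then 0.5, 2 and 10 µM on the x axis (categories, not to scale). Circles with solid lines are replicate 1, squares with dashed lines replicate 2, and the dotted line is the detection level. Lif, Il10, Fli1 and Cflar stay nearly level up to 2 µM and drop at 10 µM, whereas Bex1 and Mgst3 climb over the whole range.

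The markers of the cells themselves fell too. All 5 tested CD4 T cell markers were called lower, beside 17.8% of all genes (median −1.26, 2 without the block, 4 with the actin covariate). Cd4 stood at 2.39 and 4.72 at 10 µM against 6.97 and 7.62 at 2 µM (−3.74 ± 0.59, adjusted p = 0.000266), and was under detection in replicate 1 at 10 µM, so that array does not show the labelled coreceptor. Cd3e, a chain of the T cell receptor complex, remained detected at 7.45 and 7.36 at 10 µM, against 8.86 and 8.31 at 2 µM. Cd8a was at 4.0 and 4.53 at 10 µM against 5.77 and 5.44 at 2 µM, so the coreceptor of the other lineage was lower as well. Cd8b1, its other chain, was detected in all 4 arrays, with 5.38 and 6.33 at 10 µM against 7.39 and 8.12 at 2 µM (−1.90 ± 0.28). Summed over 4 CD8 T cell markers, the linear signal was 305 and 478 at 10 µM and 1230 and 1280 at 2 µM. Whether CD8 T cells were present in these arrays was not tested. In bulk RNA, fewer cells of a type and less RNA of a gene per cell cannot be told apart.

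Of markers of other cells, B cell markers moved with the dose. Over 9 markers the summed linear signal was 61.5 and 161 at 10 µM and 92.9 and 1150 at 2 µM. At 10 µM 0 and 2 markers were detected, and at 2 µM 1 and 6. Of 6 tested, 3 were called lower (50%, beside 17.8% of all genes), with 0 without the block and 6 with the actin covariate. Ighm, the heavy chain of IgM, was under detection at 10 µM (3.00 and 4.21) and stood at 4.23 and 8.43 at 2 µM. Their part in the falls of genes that B cells also express was not tested. Myeloid markers summed to 135 and 209 at 10 µM and 152 and 345 at 2 µM. NK cell markers summed to 43.4 and 170 at 10 µM and 338 and 916 at 2 µM, and the only one of them detected was Nkg7, a granule protein that activated T cells also make. Dendritic and erythroid markers were under detection in all 4 arrays, and of the stromal and endothelial ones only Pecam1 was detected, in 1 array at 2 µM.

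Of 16 glycolysis genes 10 were lower (62.5%, beside 17.8% of all genes) and 0 higher. Their median was −0.55, with 2 called lower without the block and 1 with the actin covariate. Slc16a3, a lactate exporter, stood at 4.52 and 4.60 at 10 µM against 6.11 and 6.03 at 2 µM (−1.51 ± 0.31), and Tpi1, triosephosphate isomerase, at 12.98 and 13.09 against 14.22 and 13.85 (−1.0 ± 0.22). Aldoa and Pgk1, which catalyse neighbouring steps, were not called. Of 17 genes of the TCA cycle and respiration 6 were higher and 0 lower (35.3%, beside 25.9% of all genes), by at most 0.60, with 0 called without the block and 1 with the actin covariate.

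Of 16 tested genes of the interferon response, 8 were called higher (50%, beside 25.9% of all genes), 1 lower and 7 not called (median 0.74). Without the block 4 were called higher, and with the actin covariate 7. Interferon gamma induces the transcription factor IRF1, and it induces the immunity-related GTPases and guanylate-binding proteins, which attack vacuoles that hold intracellular parasites. Iigp1, such a GTPase, stood at 13.71 and 12.61 at 10 µM against 10.68 and 9.16 at 2 µM (3.24 ± 0.45, adjusted p = 0.000121). It had stood at 6.80 and 6.48 in the stimulated control and 6.84 and 6.73 at 0.5 µM, so it climbed in both upper steps. Irgm2 stood at 12.19 and 11.83 at 10 µM against 10.12 and 10.22 at 2 µM (1.84 ± 0.29). Irf1, the transcription factor, stood at 11.19 and 11.07 at 10 µM against 9.17 and 9.67 at 2 µM (1.71 ± 0.38, adjusted p = 0.00259). Gbp2 stood at 14.03 and 13.34 at 10 µM against 12.64 and 11.81 at 2 µM (1.46 ± 0.38). These 4 genes were named for the size of their rise, and both 10 µM arrays lay above both 2 µM arrays for each. The RNA sensor Ddx58 was called lower (−0.95 ± 0.28), and Ifit2, Irf9, Ifih1 and Gbp3 were not called.

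The promoters of the rising interferon genes are shown because they hold letters that interferon factors are known to bind. A promoter in the RefSeq table of build GRCm38.p6 was matched for 6 of the 8 rising members. The core of the interferon-stimulated response element, a pair of GAAA units with any 2 letters between them, was searched on both strands in the 250 bases before the start and lies in 5 of the 6 (Stat2, Igtp, Irgm1, Irgm2 and Gbp2), beside 2.98% of all 32851 promoters. TTCNNNGAA, the gamma-activated sequence, lies in 3 of the 6 (Irf1, Igtp and Irgm2), beside 7.02% of all promoters. The motifs were picked with the values known, and a match is a description of the letters only. The stretches below are of 150 bases, with matches in capitals.
Irf1, chr11:53769864-53770013, plus strand: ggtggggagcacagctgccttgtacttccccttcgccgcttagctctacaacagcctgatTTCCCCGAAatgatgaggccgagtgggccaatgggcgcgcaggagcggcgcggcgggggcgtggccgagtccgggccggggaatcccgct
Igtp, chr11:58199406-58199555, plus strand: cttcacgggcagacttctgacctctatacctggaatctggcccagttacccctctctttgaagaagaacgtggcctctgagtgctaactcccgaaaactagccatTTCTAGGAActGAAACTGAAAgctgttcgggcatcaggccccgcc
Irgm1, chr11:48871421-48871570, minus strand: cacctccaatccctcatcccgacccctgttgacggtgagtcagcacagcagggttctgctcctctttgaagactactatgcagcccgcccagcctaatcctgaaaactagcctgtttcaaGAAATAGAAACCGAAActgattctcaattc
Irgm2, chr11:58214827-58214976, plus strand: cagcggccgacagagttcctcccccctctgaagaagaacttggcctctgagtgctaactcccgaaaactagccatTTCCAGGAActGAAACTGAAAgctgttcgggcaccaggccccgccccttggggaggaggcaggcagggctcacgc
Gbp2, chr3:142620513-142620662, plus strand: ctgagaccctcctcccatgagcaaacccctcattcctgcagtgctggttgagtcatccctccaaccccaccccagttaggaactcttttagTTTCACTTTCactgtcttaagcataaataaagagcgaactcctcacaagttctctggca

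Igtp and Irgm2 carry the same arrangement, a gamma-activated sequence followed after 2 letters by GAAACTGAAA, and in Gbp2 the response element is read on the opposite strand. In Irgm1 a pair of overlapping matches runs through GAAATAGAAACCGAAA. Igtp stood at 13.63 and 13.29 at 10 µM against 12.67 and 12.34 at 2 µM (0.96 ± 0.15), and Irgm1 at 10.71 and 10.49 against 9.32 and 9.39 (1.24 ± 0.19).

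Heat shock genes changed in a few members. Of 14 tested, 4 were higher and 0 lower (28.6%, beside 25.9% of all genes, median 0.18), with 0 called without the block and 3 higher and 1 lower with the actin covariate. The exceptions in size were the stress-inducible Hsp70 genes, which encode chaperones that refold damaged proteins. Hspa1a stood at 7.84 and 6.72 at 10 µM against 5.41 and 4.22 at 2 µM (2.47 ± 0.39, adjusted p = 0.00027), and Hspa1b at 11.72 and 11.32 against 9.91 and 9.71 (1.71 ± 0.23). These neighbours on chromosome 17 are near-identical copies, so their probe sets may share signal. The constitutive chaperones Hspa8 (0.04 ± 0.11) and Hsp90aa1 (0.13 ± 0.08) were not called. The motif GAANNTTC, a pair of the facing units bound by heat shock factor, lies in 3 of the 4 rising members' promoters (Hspa1a, Hspa1b and Hspd1), beside 6.69% of all promoters. It too was picked with the values known, and the promoters of uncalled members were not searched. Hspa1a and Hspa1b share the same match, so they do not count as separate promoters. Matches to the motif are in capitals here, in stretches of the same build and length, and describe the letters only.
Hspa1a, chr17:34972157-34972306, minus strand: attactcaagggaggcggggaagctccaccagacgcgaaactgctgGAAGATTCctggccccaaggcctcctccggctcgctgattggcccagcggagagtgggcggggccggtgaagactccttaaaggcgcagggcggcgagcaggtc
Hspa1b, chr17:34959239-34959388, minus strand: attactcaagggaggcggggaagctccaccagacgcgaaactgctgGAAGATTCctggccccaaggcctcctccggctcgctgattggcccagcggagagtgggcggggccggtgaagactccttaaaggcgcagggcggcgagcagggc
Hspd1, chr1:55087933-55088082, minus strand: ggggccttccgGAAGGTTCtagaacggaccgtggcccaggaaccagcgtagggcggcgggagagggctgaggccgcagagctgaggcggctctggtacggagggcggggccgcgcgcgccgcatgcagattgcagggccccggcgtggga

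Of 27 genes known from neurons 12 passed the filter on low values. Among the 12, 6 were called higher (50%, beside 25.9% of all genes) and 0 lower (2 higher without the block, 3 with the actin covariate). As genes that are high only in the treated arrays pass such a filter by being high there, this count supports nothing further. Bex2 stood at 5.80 and 7.22 at 10 µM against 2.78 and 4.92 at 2 µM (2.66 ± 0.28). Uchl1, a ubiquitin hydrolase of neurons, stood at 4.86 and 4.80 at 10 µM against 3.32 and 2.79 at 2 µM. Bex1 was abundant throughout, with 12.93 and 12.48 at 10 µM against 11.37 and 11.25 at 2 µM and 8.51 and 9.26 in the stimulated control.

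Some of the largest rises began under detection. BC023105 stood at 9.89 and 7.88 at 10 µM against 3.03 and 2.82 at 2 µM, at least 24.6-fold higher (adjusted p = 6.61e-05). Reep6, of a family that shapes the endoplasmic reticulum, stood at 6.69 and 6.55 at 10 µM against 2.84 and 3.36 at 2 µM, at least 5.1-fold higher. Cdkn2b, which encodes the cyclin-dependent kinase inhibitor p15, stood at 6.78 and 5.52 at 10 µM against 2.48 and 3.18 at 2 µM, at least 3.69-fold higher (adjusted p = 0.000524). It was under detection at each lower dose and without drug, so it appeared in the last step. Strip2, Gpr160, Depdc7, Gca and H2aw also rose from under detection, by at least 2.42-fold to 4.1-fold.

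Among genes with both means detected, Abhd3, which cuts phospholipids, rose 11.3-fold, with 7.97 and 7.89 at 10 µM against 4.30 and 4.57 at 2 µM (3.50 ± 0.46, adjusted p = 8.9e-05). Its levels at 0.5 µM and in the stimulated control were at the lowest value of the arrays (2.27 and 2.25). Wasf1, an actin regulator best known from neurons, stood at 8.37 and 8.16 at 10 µM against 6.07 and 5.79 at 2 µM (2.34 ± 0.24) and climbed over the whole range from 2.66 and 2.26 in the stimulated control. Tjp1, which encodes the tight junction protein ZO-1, stood at 8.35 and 6.14 at 10 µM against 6.35 and 3.13 at 2 µM (2.51 ± 0.59), so its groups overlap and it was not called without the block (adjusted p = 0.455). Ttc26, of the transport machinery of cilia, stood at 7.92 and 7.71 at 10 µM against 4.87 and 5.68 at 2 µM (2.54 ± 0.26), and Mns1, a protein of sperm flagella, at 6.96 and 6.90 against 3.58 and 5.15 (2.56 ± 0.31).

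Cell cycle genes did not move as a body. Of 25 DNA replication genes 3 were higher and 2 lower (median −0.02), and of 23 mitosis genes 3 were higher and 3 lower (median −0.21), both below the shares over all genes. With 0 called in either list without the block, the actin covariate left 1 replication gene higher and 0 mitosis genes called. The licensing factor Cdc6 was higher (0.90 ± 0.15) and thymidine kinase Tk1 lower (−1.21 ± 0.35). The mitotic kinase Cdk1 was lower, with 8.27 and 9.40 at 10 µM against 9.51 and 10.37 at 2 µM, while Pcna, Mcm5 and Ccnb2 were not called. Cell cycle brakes and D cyclins were split, with 5 of 15 higher (33.3%) and 7 lower (46.7%), beside 25.9% and 17.8% of all genes. Without the block 1 and 2 were called, and with the actin covariate 4 and 1. Beside Cdkn2b, Cdkn1c was called higher. Cdkn2a was called higher as well, but was under detection in all 4 arrays (3.63 and 4.20 at 10 µM, 2.57 and 2.54 at 2 µM). Cdkn1a, which encodes p21 and is widely reported to rise with deacetylase inhibitors, was called lower (−0.80 ± 0.26, adjusted p = 0.0198), with 10.53 and 10.85 at 10 µM against 11.44 and 11.54 at 2 µM. Cdk6 (−1.28 ± 0.26) and Ccnd2 (−1.08 ± 0.20), which drive entry into the cycle, were lower.

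DNA repair genes were called higher in 9 of 17 (52.9%, beside 25.9% of all genes) and lower in 1, with a median of 0.39. However, 0 were called without the block and 2 with the actin covariate. Brca2, of homologous recombination, was the largest (0.92 ± 0.16), followed by Xrcc6, which encodes Ku70 (0.86 ± 0.16). Myc fell to 7.96 and 10.10 at 10 µM, against 10.26 and 11.66 at 2 µM (−1.93 ± 0.31, adjusted p = 0.000311). The ribosome biogenesis genes on the same list did not follow it as a body. Of the 24 genes of that list, Myc included, 4 were higher (16.7%) and 2 lower (8.33%), beside 25.9% and 17.8% of all genes. Without the block 0 of either were called, with the actin covariate 2 each way, and Npm1 and Ncl were not called. Lysosome and autophagy genes were higher in 8 of 20 (40%) and lower in 2 (10%), beside 25.9% and 17.8% of all genes. Their median was 0.28, with 2 called higher without the block and 5 with the actin covariate. Lamp2, a lysosomal membrane protein, stood at 11.95 and 12.28 at 10 µM against 10.84 and 11.20 at 2 µM (1.09 ± 0.17), and the protease Ctsl at 10.34 and 10.22 against 9.25 and 9.23 (1.04 ± 0.20).

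The 15 tested genes of the next list were of histone deacetylases, which include the drug's targets, and of the NAD-dependent sirtuins, which it does not target. Among them 5 were higher (33.3%) and 2 lower (13.3%), beside 25.9% and 17.8% of all genes. Their median was 0.17, with 0 of either called without the block and 1 higher with the actin covariate. Of the 5 higher, Sirt2 and Sirt7 are sirtuins. Hdac7, a class IIa enzyme of lymphocytes, changed most, with 5.52 and 6.89 at 10 µM against 7.95 and 9.21 at 2 µM (−2.38 ± 0.51, adjusted p = 0.00204). Hdac6, the tubulin deacetylase, stood at 8.53 and 8.53 at 10 µM against 7.12 and 7.73 at 2 µM (1.10 ± 0.34). Hdac1 (0.45 ± 0.11) and Hdac3 (0.50 ± 0.08) were called higher and Hdac8 lower (−0.61 ± 0.20). Hdac2, Hdac4, Hdac5, Hdac9 and Hdac10 were not called, and Hdac11 did not pass the filter on low values. Of 8 linker and variant histone genes 4 were higher (50%) and 2 lower (25%), beside the same shares of all genes. Without the block 0 of either were called, and with the actin covariate 3 higher. The linker histone gene H1f2 stood at 10.90 and 10.66 at 10 µM against 9.22 and 7.88 at 2 µM (2.23 ± 0.34). H3f3b, which encodes histone H3.3, stood at 10.56 and 8.91 against 8.72 and 7.10 (1.83 ± 0.24). The 2 called lower were Macroh2a1 (−0.63 ± 0.14) and H2az1 (−0.47 ± 0.12).

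**Figure D4:**
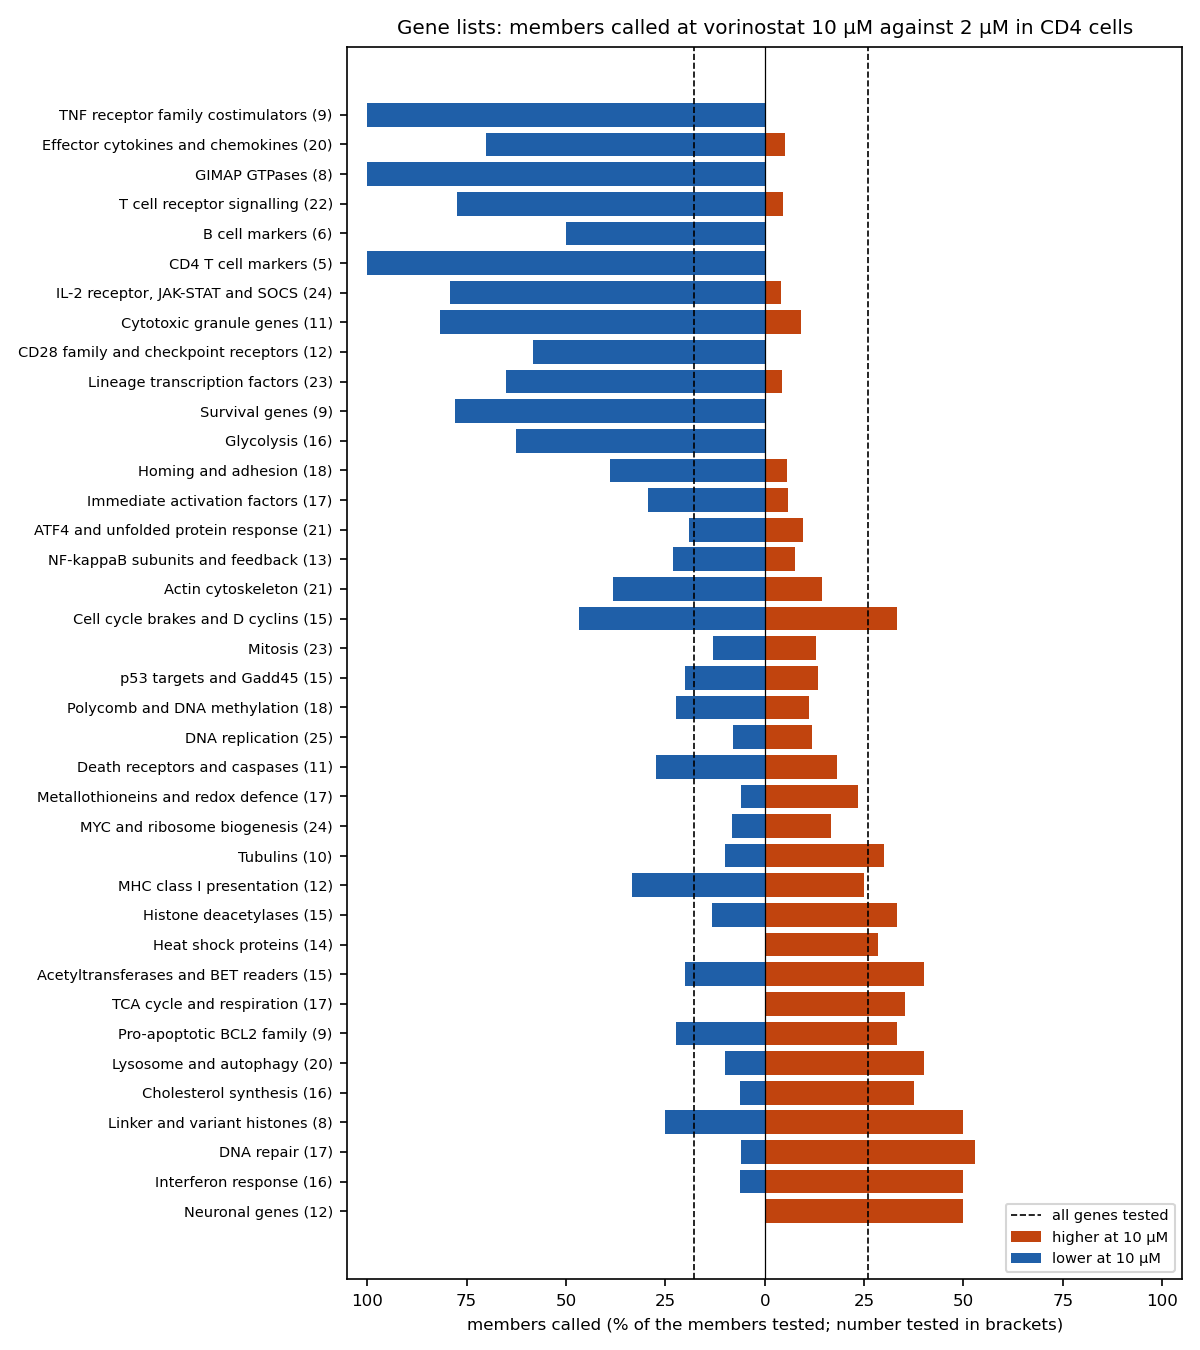
Share of the tested members of each of 38 gene lists with at least 5 tested members that were called at vorinostat 10 µM against 2 µM in CD4 cells, with members higher at 10 µM to the right in orange and members lower to the left in blue. Lists are ordered by median change, and the dashed lines mark the shares over all 9871 genes, 25.9% higher and 17.8% lower. The TNF receptor family costimulators, the GIMAP GTPases and the CD4 T cell markers are lower in all tested members, and DNA repair, neuronal, interferon and linker and variant histone genes have the longest orange bars.

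The same step was then set against that of CD8 T cells of the study, which shares no array with it. In CD8 cells 2247 genes were higher at 10 µM than at 2 µM (22.8%) and 1839 lower (18.6%). There were 1728 genes called higher in both cell types, of the 2552 in CD4 cells and the 2247 in CD8 cells, and 1221 called lower in both, of 1761 and 1839. A further 9 genes were called in opposite directions. The difference between the CD4 and CD8 steps was called for 8 genes (0.081%), and 969 had an unadjusted p under 0.05. The 95% interval of such a difference, not adjusted for the number of genes, reached a median of 0.50 to each side. Much larger differences also went uncalled in limma, such as Il10 (−4.99 ± 0.94, adjusted p = 0.0581) and Casp6 (−1.56 ± 0.35, adjusted p = 0.0983). A gene without a called difference is thus not shown to move alike in both cell types. The count depended on the fit, with 1 gene without the block, 35 with quantile normalization, 43 with the actin covariate and 1 to 24 without single arrays.

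For 4 of the 8 genes, 1 cell type did not express the gene at a detected level at either dose. Il24 was at its lowest value in all 4 CD8 arrays at these doses, which leaves its CD4 fall alone (difference −5.05, adjusted p = 0.0277). Prdm16 and 1700061F12Rik were under detection in those CD8 arrays too. Ccl9, a chemokine, was under detection in the CD4 arrays and fell in CD8 cells to 3.89 and 2.65 at 10 µM, against 9.56 and 7.20 at 2 µM. The other 4 were Tiam1, Ifi47, Eomes and Lhfp. Tiam1, an activator of Rac, stood at 7.67 and 7.74 at 10 µM against 9.27 and 9.26 at 2 µM in CD4 cells, and at 6.62 and 6.63 against 5.34 and 6.18 in CD8 cells (difference −2.43 ± 0.40). Ifi47, an immunity-related GTPase, was higher in CD4 cells, with 11.83 and 12.33 at 10 µM against 10.69 and 11.29 at 2 µM, and stood in CD8 cells at 11.97 and 12.55 against 12.12 and 12.47 (difference 1.12 ± 0.15, adjusted p = 0.00945). Eomes, a T-box factor, was not called in CD4 cells and was lower in CD8 cells, with 7.92 and 9.41 at 10 µM against 10.12 and 11.34 at 2 µM (difference 2.49 ± 0.39). Lhfp rose in both, and by more in CD8 cells, where it stood at 5.62 and 5.42 at 10 µM against 3.37 and 3.16 at 2 µM.

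**Figure D5:**
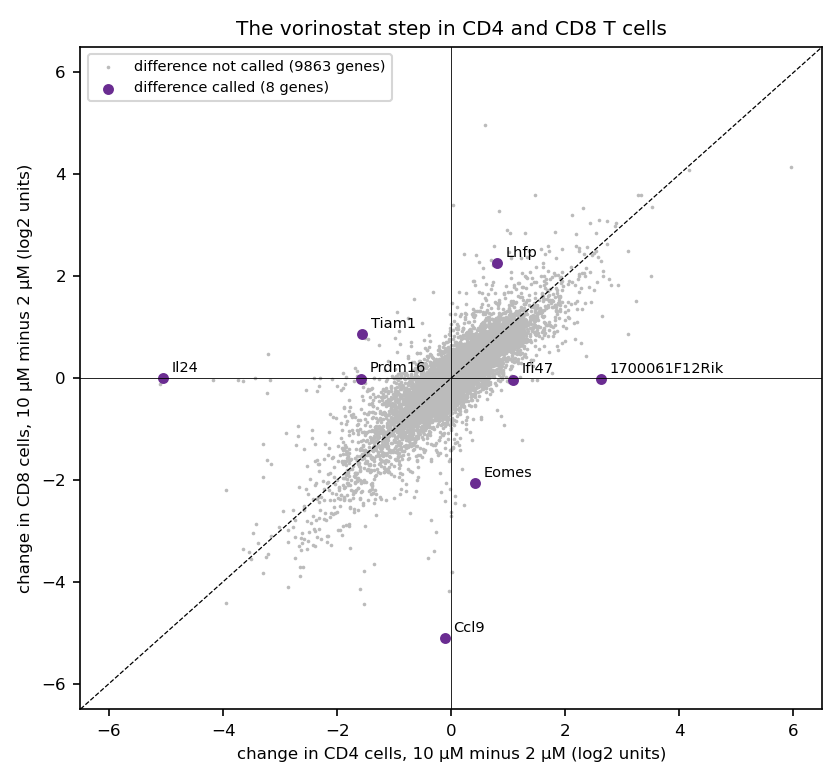
Change of 9871 genes at vorinostat 10 µM minus 2 µM in CD4 cells (x axis) and CD8 cells (y axis), in log2 units. Purple points are the 8 genes whose 2 changes were called different, and the dashed line marks equal change. Il24, Prdm16, Ifi47 and 1700061F12Rik lie near 0 on the CD8 axis, Ccl9 near 0 on the CD4 axis, and Tiam1 is lower in CD4 cells and higher in CD8 cells.

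The highest step of romidepsin, a cyclic depsipeptide inhibitor of histone deacetylases, was from 10 nM to 30 nM. Its doses are not matched to those of vorinostat, so the values stand side by side only. In CD4 cells 635 genes were higher at 30 nM than at 10 nM (6.43%) and 421 lower (4.27%). The size of the 2 steps was called different for 3 genes (0.0304%), and 1062 had an unadjusted p under 0.05. Those 3 were 1700061F12Rik, Fmnl2 and Sgcb. In limma on the 14 CD4 arrays alone 0 genes were called (999 at an unadjusted p under 0.05), as with quantile normalization (1186), and 1 was called without the block and 1 to 18 without single arrays. Fmnl2, an actin nucleator, stood at 5.43 and 4.52 with vorinostat at 10 µM against 2.75 and 2.48 at 2 µM, and at 5.71 and 5.76 with romidepsin at 30 nM against 5.69 and 5.66 at 10 nM. Sgcb, a sarcoglycan, stood at 9.14 and 8.53 with vorinostat at 10 µM against 7.02 and 6.83 at 2 µM, and with romidepsin at 8.98 and 8.43 at 30 nM against 8.70 and 8.02 at 10 nM. For the lists, the romidepsin step gave 7 T cell receptor members lower, 6 cytokines lower, 5 GIMAP genes lower and 2 interferon members higher. None of the members of these 4 lists had a called difference between the drugs. With only 3 such calls among 9871 genes, this cannot show that the lists moved alike.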

How the data were processed

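Expression was measured on Mouse430_2 arrays, and the authors deposited log2 values for 45101 probe sets, made with GCRMA per the submitters' processing notes (version and settings not given in the sources used here). The base of the logarithm is not stated and was read as 2 from the range of values. Such values are scaled to a shared distribution among arrays processed together, so a loss or gain of RNA common to most genes cannot be seen. The replicate sets did not share 1 distribution. With CD4 vorinostat at 10 µM the median over probe sets was 2.33 in replicate 1 and 2.4 in replicate 2. Counts of detected genes are therefore best compared within a replicate number. A single gene is named for 34958 probe sets, more than 1 for 932, and 9211 are unnamed here. Each of 18193 genes was read from its brightest probe set that names it alone, and the 9871 genes over the mode of all values plus 2 (a level of 4.27) in at least 2 of 28 arrays were tested. Raw image files were not used here.

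The 14 group means and the replicate number within each cell type were fitted to all 28 arrays in limma 3.58.1 (lmFit and eBayes, R 4.3.3), with Benjamini-Hochberg adjustment over all genes tested and a threshold of 0.05. The labels do not say what a replicate number shares, though replicate 1 arrays held male cells and replicate 2 arrays female cells by Xist and Eif2s3y. The values bear on it: deviations of equally numbered arrays from their group means correlated at 0.762 to 0.940 over the 21 pairs of CD4 groups (0.839 between 10 µM and 2 µM) and at 0.768 to 0.958 over the 21 pairs of CD8 groups, and the lowest value was 2.2684 in all replicate 1 arrays and 2.2545 in all replicate 2 arrays. The fit was tested on data simulated from the same model with its block. Such data cannot show whether the block is right for these arrays.

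Most genes were named by rule. Among called genes with the same sign in both pairs, these were the top 12 in each direction where both doses had a detected mean, up to 8 each way with both arrays of 1 group under detection (as bounds), and up to 4 called members each way of each list. Genes with a called difference from the CD8 or romidepsin step were named too. Some genes, such as Cd4, Cd8a, Cd8b1, Cdkn1a and the Hdac genes, were named whatever their values. Uncalled members may be given by their values. Some called members outside the rule are also given, such as Igtp and Irgm1 with their promoters and the further cytokines named after their values were seen. The 44 gene lists and the members described were chosen with earlier results of these data known. Bounds compare the brighter group's mean with, per array, the higher of the detection level and the dim value. Alternatives were no replicate block, the CD4 arrays alone, the 4 arrays alone, quantile normalization, equal medians, other filters, the mean of probe sets, an intensity trend, the actin difference as a covariate, and each array left out.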

Additional observations from a re-analysis of the deposited data

Results flagged for a closer look

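Each gene here drew attention because its change from 2 µM to 10 µM differed between 2 settings in a test of the difference itself. Between CD4 and CD8 cells (CD4 change minus CD8 change, limma, adjusted over all genes tested), the differences were 5.00 ± 0.83 for Ccl9 (adjusted p = 0.0277), 2.65 ± 0.15 for 1700061F12Rik (1.17e-07), 2.49 ± 0.39 for Eomes (0.0275) and 1.12 ± 0.15 for Ifi47 (0.00945). They were −1.45 ± 0.23 for Lhfp (adjusted p = 0.0275), −1.56 ± 0.24 for Prdm16 (0.0275), −2.43 ± 0.40 for Tiam1 (0.0277) and −5.05 ± 0.82 for Il24 (0.0277). Ccl9 had no detected level in the CD4 arrays at these doses, and Il24, Prdm16 and 1700061F12Rik had none in the CD8 arrays.

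Between vorinostat (10 µM minus 2 µM) and romidepsin (30 nM minus 10 nM) in CD4 cells, the steps differed by 1.52 ± 0.15 for 1700061F12Rik (adjusted p = 0.000266), by 2.30 ± 0.30 for Fmnl2 (0.00672) and by 1.57 ± 0.24 for Sgcb (0.0251). The doses of these drugs are not matched.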

How the results depend on the processing

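With 2 arrays per group and a replicate difference as wide as many changes, the number of calls depends on the fit. Against 4313 calls (2552 higher, 1761 lower), 535 were made with no replicate block (361 and 174), where the replicate difference enters the spread, 1467 from the 4 arrays alone (776 and 691), where 1 degree of freedom is left, and 1569 with the actin covariate (912 and 657). Leaving out arrays gave 1473 to 3715 calls (881 to 2204 higher, 592 to 1511 lower). The count was lowest without replicate 1 of both groups (1473) and also fell by over 1.5 times without replicate 1 at 10 µM (2714, of which 1592 higher) or at 2 µM (2687, of which 1073 lower). A lone array is assumed to vary like the other groups. Other alternatives gave 3745 to 4411 calls. Of 38 lists with at least 5 tested genes, 26 had a median under that of all genes, and leaving out arrays gave 23 to 26. Of the 229 named genes called, 57 were called without the block and 104 with the actin covariate, where 7 others changed sign and 118 were no longer called.

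The 8 differences from the CD8 step became 1 with no replicate block, 35 with quantile normalization, 24 with no filter, 27 with the mean of probe sets, 17 with an intensity trend, 43 with the actin covariate and 1 to 24 without single arrays. The 3 differences from the romidepsin step became 1 with no replicate block, 0 from the 14 CD4 arrays (limma, 999 genes at an unadjusted p under 0.05), 0 with quantile normalization (1186), 15 with no filter, 13 with the actin covariate and 1 to 18 without single arrays.

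Signs turned with the actin covariate for Fos (−0.17), Nfkbiz (−0.12), Erap1 (0.042), Rrm2 (0.016), Gabarapl1 (0.14), H2az2 (−0.067) and Tagln2 (0.046), and for the uncalled Ccl9 (0.28), Hdac5 (−0.10) and Actb (0.21). They turned with the mean of probe sets for Tap1 (−0.035), and, among genes not called, with arrays left out, over which Ccl9 ran from −0.227 to 0.01, Eomes from −0.074 to 0.922 (−0.216 within replicate 2 and, called, 1.06 within replicate 1), Hdac9 from −0.907 to 0.294 and Hdac10 from −0.092 to 0.034. The cause was not tested.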

Other observations

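Of 15 tested genes for enzymes that add acetyl marks and proteins that read them, 6 were called higher at 10 µM than at 2 µM (40%) and 3 lower (20%), beside 25.9% and 17.8% of all genes, with 0 of either without the replicate block and 2 each way with the actin covariate. Kat2b, the acetyltransferase PCAF, stood at 6.68 and 8.77 at 10 µM against 9.05 and 10.12 at 2 µM (−1.86 ± 0.31), and Ep300, which encodes p300, was lower (−0.68 ± 0.14). Kat8 (0.70 ± 0.15) and Hexim1, an inhibitor of the elongation kinase P-TEFb (0.68 ± 0.12), were higher. Of 18 genes of Polycomb and DNA methylation 2 were higher (11.1%) and 4 lower (22.2%), beside the same shares of all genes. Without the block 0 of either were called, and with the actin covariate 1 lower. The de novo methyltransferase gene Dnmt3a changed most (−1.19 ± 0.31).

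Of 10 tubulin genes 3 were higher (30%) and 1 lower (10%), beside 25.9% and 17.8% of all genes (1 higher without the block, 1 with the actin covariate). Tubb2a stood at 11.35 and 11.04 at 10 µM against 9.98 and 9.63 at 2 µM (1.39 ± 0.35), while Tubb6 was lower (−1.25 ± 0.29). Of 21 genes of the actin cytoskeleton 3 were higher (14.3%) and 8 lower (38.1%), beside the same shares of all genes. Tpm4, a tropomyosin (−1.29 ± 0.28), and Coro1a, a coronin of leukocytes (−1.08 ± 0.26), were among the 8 lower. With the actin covariate 0 of these 8 were called lower. Of 16 cholesterol synthesis genes 6 were higher (37.5%) and 1 lower (6.25%), beside 25.9% and 17.8% of all genes. Mevalonate kinase Mvk led the rises (1.18 ± 0.25), with 0 called without the block and 0 with the actin covariate.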
